A study of Mus musculus with 15 samples.

Results

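Gene deserts are long stretches of a chromosome without known genes, and the H3K27ac peaks that lie deep inside them are described here for a mouse fusion-positive rhabdomyosarcoma (FP-RMS), a sarcoma with muscle features in which the fusion PAX3-FOXO1 drives growth. A peak was taken as a gene desert peak when its summit lay in no curated RefSeq transcript of mm10 and more than 100 kb from every RefSeq start site. By this rule 8124 of the 122375 peaks in the list were gene desert peaks, which is 6.64% (Wilson 95% interval 6.50 to 6.78%). They lay in 858 of the 2214 stretches between neighbouring transcripts that hold any sequence meeting the rule. The stretch with most of them lay on chromosome 1 between the noncoding gene Gm5524 and Gm597 and held 109 peaks, and the other stretches with many peaks included those beside Jag1, Meis1, Hmga2, Irs1, Cited2 and Trps1.

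The peak list came from the H3K27ac library MCP replicate 5, and it is the only list used here among 15 CUT&RUN libraries. CUT&RUN cuts out the DNA beside an antibody with a tethered nuclease, and a library made with IgG, which binds no particular mark, served as its background. MCP tumors arose in mice with Myf6-Cre, with the alleles Cdkn2a(Flox/Flox) and Pax(3P3F/P3F) and with the reporter R26-tdTom, in which Cre made in Myf6-expressing muscle cells switches on PAX3-FOXO1, removes the tumor suppressor Cdkn2a and labels the cells with tdTomato, and live cells were sorted from dissociated tumors. The series also holds 5 other MCP H3K27ac libraries, 3 TCP H3K27ac libraries, from tumors in which Tek-Cre acts in endothelial and blood cells, and 3 IgG libraries of each tumor type. With 1 list from 1 tumor there are no replicates, so no difference was tested against the spread between tumors, and the intervals given cover counting error only.

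Acetylation of histone H3 at lysine 27 marks active promoters and active enhancers, the DNA elements that raise transcription of a gene from a distance. Many genes that direct development, such as transcription factors and signalling ligands, sit next to gene deserts, and enhancers inside those deserts are known to reach their gene over long distances. Other deserts are poor in such elements, rich in repeats and AT bases, and lie beside genes of neuronal adhesion that are silent in most tissues. The annotation decides what counts as a desert, since noncoding transcripts and predicted gene models fill many of these stretches.

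The sequences under the strongest peak of each of the 6 deserts with most peaks show what the members look like at base level. Each runs 100 bases to either side of the summit, on the plus strand of GRCm38 (the assembly behind mm10), with the E-boxes CAGCTG and CACCTG and the AP-1 motif TGANTCA (N stands for any base) in capitals on either strand. The E-box CAGCTG is bound by the myogenic factors MYOD1 and MYOG, and AP-1 is the dimer of FOS and JUN proteins.
Gm5524 to Gm597, chr1:28328760-28328960: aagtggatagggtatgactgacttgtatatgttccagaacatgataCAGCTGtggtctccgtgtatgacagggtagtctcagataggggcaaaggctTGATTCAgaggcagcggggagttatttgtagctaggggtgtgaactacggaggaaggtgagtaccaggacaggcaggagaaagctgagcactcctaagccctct
4930474N05Rik to Ccser2, chr14:36706523-36706723: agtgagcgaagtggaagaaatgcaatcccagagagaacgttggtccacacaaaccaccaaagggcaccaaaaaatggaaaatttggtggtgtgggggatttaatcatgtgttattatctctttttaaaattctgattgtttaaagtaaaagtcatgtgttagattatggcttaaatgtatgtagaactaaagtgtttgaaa
Edem1 to Grm7, chr6:109181007-109181207: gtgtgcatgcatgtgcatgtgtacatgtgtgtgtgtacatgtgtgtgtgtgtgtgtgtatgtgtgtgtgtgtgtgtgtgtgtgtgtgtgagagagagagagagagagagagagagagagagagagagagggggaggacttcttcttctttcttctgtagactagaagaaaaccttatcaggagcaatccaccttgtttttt
Jag1 to Gm14062, chr2:137644370-137644570: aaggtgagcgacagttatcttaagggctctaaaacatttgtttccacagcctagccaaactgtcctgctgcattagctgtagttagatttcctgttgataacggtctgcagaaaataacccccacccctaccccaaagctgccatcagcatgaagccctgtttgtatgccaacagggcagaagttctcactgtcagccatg
Gm597 to Mir6342, chr1:29261516-29261716: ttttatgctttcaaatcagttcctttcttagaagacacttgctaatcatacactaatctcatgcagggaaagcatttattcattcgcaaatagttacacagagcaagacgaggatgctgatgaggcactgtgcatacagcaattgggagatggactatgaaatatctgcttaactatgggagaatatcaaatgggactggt
Mir205hg to 4930503O07Rik, chr1:194090138-194090338: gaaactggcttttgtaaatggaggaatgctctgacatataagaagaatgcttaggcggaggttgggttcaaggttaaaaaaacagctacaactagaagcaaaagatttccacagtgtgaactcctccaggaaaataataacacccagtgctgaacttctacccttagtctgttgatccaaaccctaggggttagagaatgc

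In the Gm5524 to Gm597 desert the strongest peak had a fold enrichment over IgG of 12.4, rested on 30 fragments at its summit and held 1 CAGCTG and 1 AP-1 motif. The other 5 windows held none of the 3 motifs. The window from the Edem1 to Grm7 desert lay in a run of TG and AG repeats, at a peak of 13.4-fold. That of the Gm597 to Mir6342 desert lay under the second strongest gene desert peak of the list, a peak of 22.5-fold and 4471 bases. The GC content of the 6 windows ran from 35.3% to 50.2%. In the Jag1 to Gm14062 desert the window lay at 13.4-fold on 30 fragments, in the Mir205hg to 4930503O07Rik desert at 13.1-fold on 31, and in the 4930474N05Rik to Ccser2 desert at 11.2-fold on 25.

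The sequence that meets the rule made up 28.7% of the known bases of the chromosomes (759 Mb) and held 6.64% of the peaks. This gave 10.7 gene desert peaks per Mb, against 31.6 per Mb for intergenic peaks 2 to 100 kb from a start site, 64.1 per Mb in transcripts more than 2 kb from a start site and 250.3 per Mb within 2 kb of a start site. The sequence includes chromosome Y, whose 73.1 Mb of desert held no desert peak. Inside the deserts, Y included, the density fell with distance at every step. It was 19.01 per Mb at 100 to 150 kb, 15.01 at 150 to 200 kb, 12.02 at 200 to 300 kb, 8.01 at 300 to 500 kb, 4.66 at 500 to 1000 kb and 0.984 beyond 1000 kb. The median desert peak lay 186 kb from a start site, and 734 lay more than 500 kb from any. The 3 farthest lay together on chromosome 14 between Olfm4 and Gm32455, at 1973 to 2010.1 kb, each with a fold between 4.36 and 5.65. The rule counts from start sites, so a peak just past the end of a long gene also qualifies, and 246 gene desert peaks (3.03%) lay within 10 kb of a transcript.

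**Figure D1:**
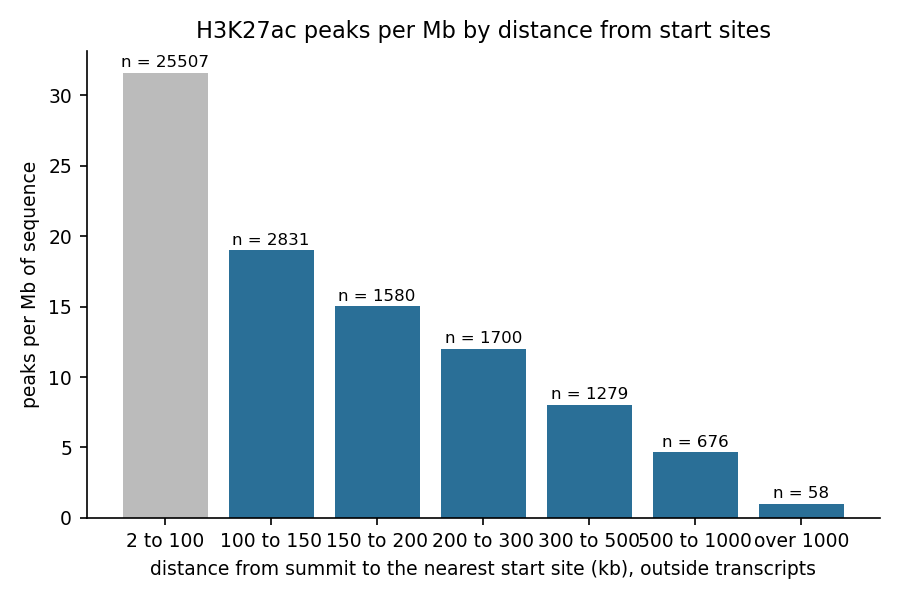
Peaks per Mb of known sequence (vertical axis) by the distance in kb from the summit to the nearest RefSeq start site (horizontal axis), for summits outside transcripts in 1 library, with gene desert peaks in blue and intergenic peaks nearer to genes in grey. Each bar is labelled with its number of peaks, and the density falls from 31.6 per Mb at 2 to 100 kb to 0.984 per Mb beyond 1000 kb.

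The gene desert peaks were rarer per Mb than other peaks. Their fold was close to that of other peaks outside promoters and below that of promoter peaks. Every listed peak had passed the caller's limit, and the lower quartile of fold was 4.36 in deserts and 4.39 at promoters. How far that limit sets the medians was not tested. Their fold enrichment had a median of 5.13 (quartiles 4.36 and 6.10, range 2.18 to 25.9), where the fold divides the summit's fragments by the IgG background around it, after 1 is added to each. Intergenic peaks nearer to genes had a median of 5.20, peaks in transcripts 5.05 and promoter peaks 5.42. The order-statistic 95% intervals of the desert median, 5.05 to 5.20, and of the nearer intergenic median, 5.15 to 5.22, overlapped. A fold of 10 or more was reached by 296 desert peaks (3.64%), against 3.93% of the nearer intergenic peaks, 3.37% of those in transcripts and 7.21% of promoter peaks. Distance changed the strength little, with medians from 5.11 to 5.17 out to 500 kb and 4.79 beyond.

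The evidence behind each peak was thin. The fragments over a summit were recovered from the fold and p of the caller, and desert summits had a median of 12 (quartiles 10 and 16, range 7 to 85), with fewer than 20 at 7131 of them (87.8%, interval 87.0 to 88.5%). The nearer intergenic peaks had a median of 13 fragments and promoter peaks 14. At 4165 desert summits (51.3%) the IgG background stood at the lowest value in the list, 1.055, against 45.1% of the nearer intergenic summits, so there the fold follows the fragment number alone. A -log10 q of 5 or above was reached by 3694 desert peaks (45.5%). Widths had a median of 158 bases, the same as peaks in transcripts and close to the 163 of the nearer intergenic peaks, and 156 desert peaks (1.92%) reached 1500 bases.

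Most gene desert peaks had close neighbours. For 6892 of them (84.8%, interval 84.0 to 85.6%) another peak of the list lay within 5 kb, against 89.6% of the nearer intergenic peaks, and the median gap to the next peak was 185 bases. Joining desert peaks less than 1 kb apart left 3689 groups, so counts of peaks are larger than counts of separate acetylated places. Peaks without another peak within 50 kb made up 5.15% of the desert peaks (interval 4.69 to 5.65%) and 1.42% of the nearer intergenic peaks (interval 1.28 to 1.57%).

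The bases at desert summits were poorer in GC and CpG than those at other summits. Within 100 bases of the summit the median GC content was 41.8% (quartiles 37.3 and 45.8%) in deserts, 45.8% at the nearer intergenic summits, 44.8% in transcripts and 48.8% at promoters. The sequence of the deserts as a whole had 39.1% GC and that of the nearer intergenic stretches 42.3%, so summits stood above the sequence around them in each class. No CpG was present in 26.9% of the desert windows (interval 25.95 to 27.88%) and in 17.6% of the nearer intergenic windows (interval 17.2 to 18.1%). Windows with 5 or more CpG were 6.20% in deserts and 47.1% at promoters, many of which are CpG islands. Repeats, as soft-masked in the genome, made up 46.1% of desert sequence but held 19.9% of desert summits (interval 19.04 to 20.77%), compared with 39.4% of the sequence and 21.7% of the summits in the nearer intergenic class. The sequence counted here was all known bases, and how much of its repeats reads could be placed on was not measured. It includes the 73.1 Mb of desert on chromosome Y, which held no desert peak.

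The desert peaks were spread over many stretches. It took 118 deserts to hold 50% of them, 161 deserts held 1 peak and 252 held 10 or more. The 10 deserts with most peaks held 686 (8.44%, interval 7.86 to 9.07%) and the 15 with most held 944 (11.6%), in 1.32% of the qualifying sequence. These deserts were picked by their peak number, so a share above that of their sequence follows from the choice. The interval does not allow for that choice. Length alone did not order the deserts. Over 2112 deserts, chromosome Y left out, Spearman's rho between qualifying length and peak number was 0.36, a description over stretches of 1 library. Of 465 deserts with 500 kb or more of qualifying sequence, 198 held no peak. Among autosomes the empty desert with most qualifying sequence, 3436 kb, lay on chromosome 3 between D3Ertd751e and 2610316D01Rik, next to the protocadherin gene Pcdh10. The second, of 3355 kb, lay on chromosome 5 with Igfbp7 and the neuronal receptor gene Adgrl3 as nearest coding genes. For the other 3 of the 5 longest these were Stim2 and Pcdh7, Slitrk5 and Gpc5, and Got2 and Cdh8. Pcdh7, Slitrk5 and Cdh8 are further genes of neuronal adhesion. As a list, however, desert-bordering genes of neuronal adhesion and guidance had a desert peak more often (66.1%) than all desert-bordering protein-coding genes (45.3%). These shares are per gene and do not allow for the length or number of deserts that a gene borders. Whether length accounts for the difference was not tested.

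A pair of adjoining deserts on chromosome 1 held the most peaks. The stretch between Gm5524 and Gm597 (chr1:27902188-28776121, 874 kb) held 109 peaks in 696 kb of qualifying sequence, or 156.6 per Mb. Their folds ran from 2.90 to 12.4 with a median of 5.22, and they formed 42 groups at 1 kb. On the other side of Gm597, the stretch up to the microRNA gene Mir6342 (chr1:28780253-29421487, 641 kb) held 67 peaks in 34 groups, with folds from 3.28 to 22.5. The next coding gene beyond it is Phf3, which encodes a transcription regulator that binds RNA polymerase II. With predicted RefSeq models added, 109 of the 109 and 50 of the 67 peaks still met the rule, and with the GENCODE M21 annotation 50 and 6 did.

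Jag1, Cited2, Trps1, Meis1 and Zbtb20 lay beside other deserts of the 15. Between Jag1, a ligand of Notch receptors, and Gm14062 (chr2:137116521-137870045) there were 70 peaks with folds from 3.03 to 13.4 and a median of 5.29. The stretch between Gm20125 and Cited2, a transcriptional coregulator, held 55 peaks at 3.25 to 10.4-fold. Between Csmd3 and Trps1, a GATA-type repressor of bone and cartilage development, 54 peaks lay in 1763 kb of qualifying sequence, the sparsest of the 15 at 30.6 per Mb. Beside Meis1, a homeodomain cofactor of HOX proteins, the stretch from 4933406G16Rik to Spred2, an inhibitor of the MAP kinase pathway, held 52 peaks with a top fold of 16.4. Between Gap43 and the noncoding gene 4932412D23Rik, with the transcription factor gene Zbtb20 next, there were 52 peaks at a median of 5.65-fold.

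Further deserts of the 15 had borders of several kinds. The desert between Nyap2 and Mir6344, with the insulin receptor substrate gene Irs1 next, held 60 peaks at 2.68 to 11.05-fold. Trib2, a pseudokinase, and Lpin1, a phosphatidate phosphatase, bordered 53 peaks at 3.12 to 12.97-fold. Pgrmc2, a heme-binding membrane protein, and the noncoding gene Platr4 bordered 58 peaks, which were dense at 276 per Mb and had a median fold of 5.65. Edem1, a protein of endoplasmic reticulum quality control, and Grm7, a glutamate receptor, bordered 73 peaks in 1617 kb, at 45.1 per Mb. The remaining deserts of the 15 were 4930474N05Rik to Ccser2 with 76 peaks, Mir205hg to 4930503O07Rik with 64, between the coding genes Camk1g and Plxna2, and Gm36595 to 4930467K11Rik with 51, between the gap junction gene Gja1 and the heat shock factor gene Hsf2.

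The densest of the 15 was the stretch between Hmga2 and 4921513I03Rik (chr10:120476470-120765731). Hmga2 encodes a chromatin protein of embryonic cells that is often active in mesenchymal tumors. Its 50 peaks fell in 89.3 kb of qualifying sequence, 560.1 per Mb, in 10 groups, with folds from 3.12 to 11.2 and a median of 6.01, the highest median of the 15. Of the deserts with 10 or more peaks, only that between Xrcc5, a DNA end-joining protein, and the ubiquitin ligase gene Marchf4 was denser, at 609.4 per Mb, with 12 peaks in 19.7 kb. Nfil3 to Ror2, a WNT5A receptor, followed with 13 peaks at 459.7 per Mb, Trp63 to P3h2 with 24 at 418.4 and Psd3 to Sh2d4a with 40 at 392.3. In these 5 the qualifying sequence was at most 102 kb, so their densities rest on short stretches. The whole gap between transcripts was only 32.2 kb from Xrcc5 to Marchf4 and 67.2 kb from Trp63 to P3h2. Gaps as short as these qualify because the rule counts from start sites.

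**Figure D2:**
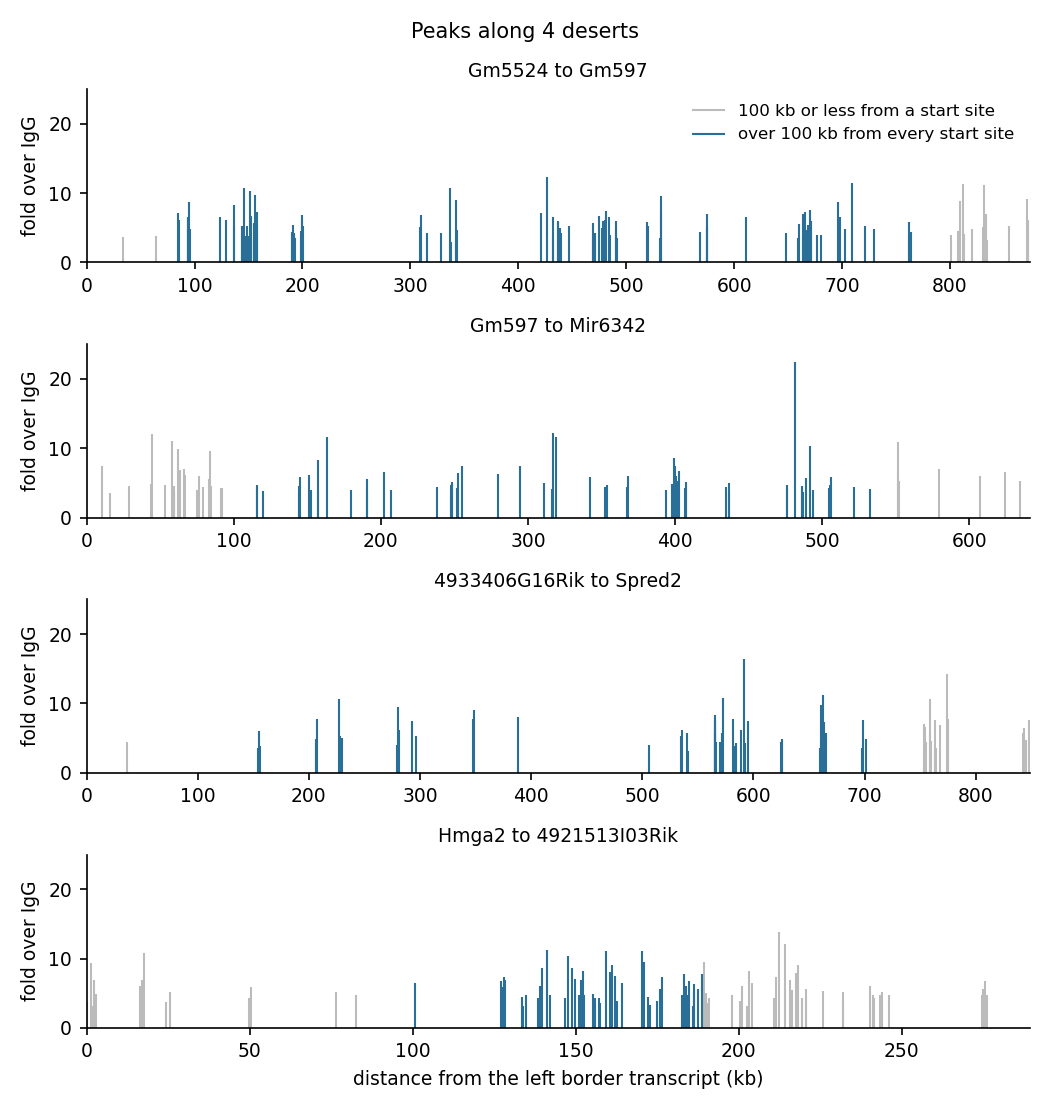
Fold enrichment over IgG (vertical axes) of each peak along 4 deserts, by distance in kb from the left border transcript (horizontal axes), in 1 library. Blue lines are gene desert peaks and grey lines are peaks 100 kb or less from a start site. The 109 blue peaks of Gm5524 to Gm597 fall in separate groups over 874 kb, and the 50 of Hmga2 to 4921513I03Rik lie mostly in a single band.

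How many of these peaks count as desert peaks depends on the annotation. Of all 8124, 3478 (42.8%) still met the rule when predicted RefSeq models were added, 1128 (13.9%) then lay in a transcript and 3518 (43.3%) lay outside transcripts but within 100 kb of a start site. With GENCODE M21, which lists many more noncoding transcripts, 1642 (20.2%) of them still met it. Few lay at the added start sites themselves, with 307 (3.78%) within 2 kb of a start site of the RefSeq set with predicted models and 346 (4.26%) within 2 kb of a GENCODE start site. The deserts differed in this. With GENCODE, 50 of the 109 peaks of Gm5524 to Gm597 but 6 of the 67 of the adjoining Gm597 to Mir6342 remained, as did 35 of the 54 of Csmd3 to Trps1 and 32 of the 64 of Mir205hg to 4930503O07Rik. None of the peaks of Pgrmc2 to Platr4, Trib2 to Lpin1, Gm36595 to 4930467K11Rik and Hmga2 to 4921513I03Rik did.

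**Figure D3:**
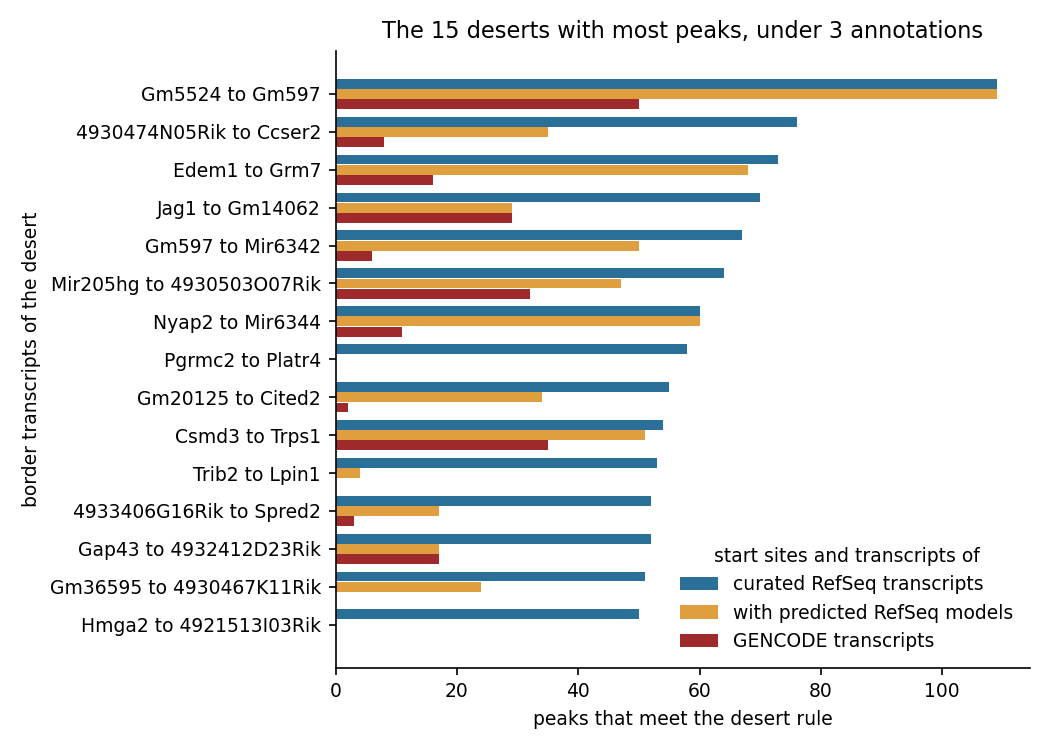
Number of peaks that meet the desert rule (horizontal axis) in each of the 15 deserts with most peaks (vertical axis, border transcripts), with start sites and transcripts of curated RefSeq in blue, of RefSeq with predicted models in orange and of GENCODE M21 in red. A missing bar is 0, and the blue bars run from 109 to 50 peaks.

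The strongest gene desert peaks lay in deserts of all sizes. The highest fold, 25.9, was at chr1:144912236-144915031, 138 kb from a start site in the desert between the G protein regulator gene Rgs18 and Gm29514. It was 2796 bases wide, with 59 fragments at the summit over the lowest IgG background. The peak of 22.5-fold in the Gm597 to Mir6342 desert came next. Then followed 21.8-fold between Pmp22, a myelin protein, and Hs3st3b1, 20.7-fold on 47 fragments both between Snx16 and Gm10745 and between 4930459L07Rik and 4933402J10Rik, and 20.4-fold between 4930563J15Rik and Zfp365. The last 4 of the 10 strongest had folds of 19.9 (4930483O08Rik to Tex36), 18.997 (Pard3 to Mir21c), 17.7 (Six2 to Srbd1) and 17.2 (C1d to Etaa1). The peak of 18.997-fold lay 472 kb from the nearest start site. The next coding gene past Mir21c is Nrp1, a semaphorin and VEGF coreceptor.

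The widest peak was that between Six2, a homeodomain factor of kidney progenitors, and Srbd1. It spanned 5646 bases (chr17:85800467-85806112), 116 kb from a start site, and its window had 53.7% GC. The next in width were a peak of 5260 bases between Xrcc5 and Marchf4 at 11.7-fold, the peak of 4471 bases beyond Gm597, and a peak of 4173 bases at 10.3-fold between the cadherin genes Cdh6 and Cdh9, whose window had 31.8% GC. A further 4059 bases belonged to another peak of the Gm597 to Mir6342 desert at 10.4-fold. Over the 8124 peaks Spearman's rho between fold and width was 0.49, as a description, both measures coming from the same fragments.

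Joined at the gap that the study used to stitch peaks into super-enhancers, the gene desert peaks formed 2518 clusters, of which 959 were single peaks. In 121 clusters there were 10 or more peaks, and these held 1815 (22.3%) of the desert peaks. Ranked by the sum of the caller's scores, 4 of the 10 highest lay on chromosome 10. The highest, in the Hmga2 to 4921513I03Rik desert, joined 49 peaks over 62.3 kb with a summed score of 3652. The second joined 41 peaks over 64.0 kb in the desert between 4930563J15Rik and Zfp365, with a summed score of 3598 and a top fold of 20.4. The third joined 33 peaks over 27.3 kb beside Dusp6, a phosphatase that is switched on by and dampens ERK signalling, with a top fold of 14.7. The fourth joined 24 peaks between Pmp22 and Hs3st3b1, and the fifth joined 28 between the zinc finger gene Hivep2 and Adgrg6, an adhesion receptor that Schwann cells need for myelination. The widest, of 70.1 kb and 31 peaks, lay between Psd3 and Sh2d4a.

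Chromosomes differed in the density of desert peaks. Chromosome 10 was highest with 652 peaks at 20.8 per Mb of desert, and chromosomes 16, 2, 13 and 1 followed at 15.9 to 16.2. Among autosomes chromosome 5 was lowest at 7.78. Chromosome X had 125 desert peaks at 2.20 per Mb, and chromosome Y none in 73.1 Mb. Over peaks of all kinds X was also low at 10.4 per Mb and Y, with 1 peak, at 0.0113, against 46.2 over all chromosomes. For the autosomes, whole-chromosome density gave a different order, since chromosome 11 had the most peaks of all kinds, 81.7 per Mb, and a desert density of 11.9. On chromosome 10 all peaks stood at 51.8 per Mb, and on chromosome 1 at 61.9. Without chromosome Y the density over all deserts was 11.8 per Mb.

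**Figure D4:**
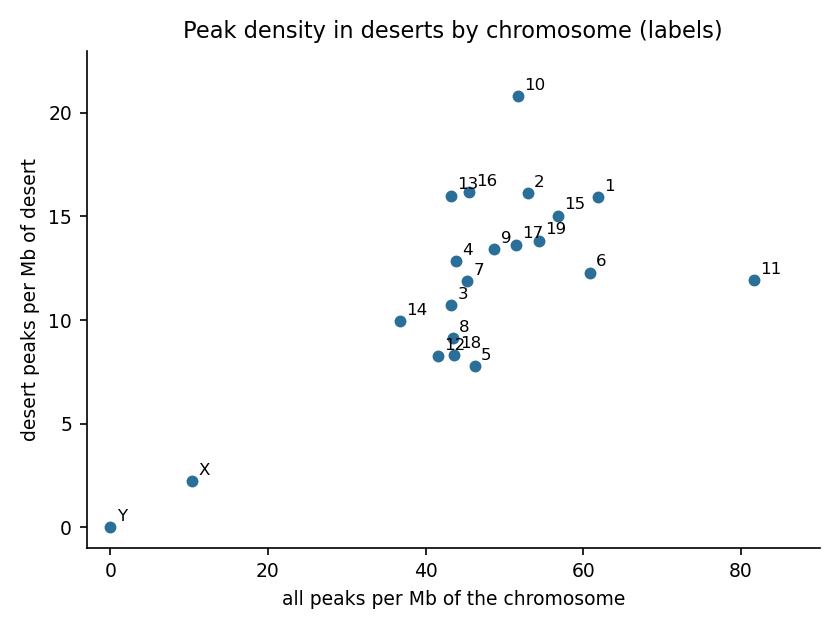
Gene desert peaks per Mb of desert (vertical axis) against all peaks per Mb (horizontal axis) for each chromosome, named beside its point, in 1 library. Chromosome 10 stands highest at 20.8 per Mb of desert, chromosome 11 farthest to the right at 81.7 peaks per Mb, and X and Y lowest.

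The 15 motifs searched were counted within 100 bases of each summit, on both strands, and in windows of the same length 2 kb to either side that touched no peak. AP-1 (TGANTCA) had the largest difference in percentage points between summits and the windows beside them, while the ETS motif and the PAX core, both rare, had a slightly higher ratio (1.70 and 1.67 against 1.66). AP-1 was in 864 desert summits (10.6%, interval 9.98 to 11.3%), against 6.404% of the windows beside them (interval 6.01 to 6.82%), 9.18% of the nearer intergenic summits (interval 8.83 to 9.54%) and 4.88% of promoter summits. The E-box CAGCTG was in 9.22% of desert summits (interval 8.61 to 9.87%) and 7.14% of the windows beside them (interval 6.73 to 7.58%), below the 10.6% of the nearer intergenic summits. The RUNX motif TGTGGTT was in 5.38% and 3.96%, the NFI motif TTGGCA in 11.1% and 9.87%, and the ETS motif CCGGAAG in 0.862% and 0.508%. For these 5 motifs the intervals at summits and beside them did not overlap.

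For the other motifs named here the share at desert summits was lower, or the intervals overlapped. The SOX motif ACAATGG was in 2.92% (interval 2.57 to 3.31%) and in 3.93% of the windows beside (interval 3.62 to 4.26%). The E-box CACCTG stood at 9.32% and 10.4%, the homeodomain core TAATTA at 7.88% and 8.36%, the MEF2 core TAAAAATA at 3.84% and 4.39%, the GATA-factor motif, of the letters AGATAAG, at 2.89% and 3.13% and SP/KLF (GGGCGG) at 1.35% and 1.41%, all with intervals that overlapped. So did those of the forkhead motif TGTTTAC (3.85% and 3.41%), the PAX core GTCACGC (0.443% and 0.265%) and TEAD (CATTCC, 11.98% and 11.34%). The shares of these last motifs were higher at summits. Summit windows had 41.6% GC on average and those beside them 40.6%, and close summits share bases, so the intervals treat as separate some windows that overlap. With 1 summit per group of peaks within 1 kb, AP-1 was in 11.5% and 6.58%, CAGCTG in 9.68% and 7.31% and RUNX in 6.045% and 3.79%, with intervals still apart, as were those of SOX. The intervals of NFI (10.8% and 9.77%) and ETS (0.976% and 0.553%) then overlapped, and those of CACCTG, at 8.16% and 9.99%, came apart. Among the 296 peaks of 10-fold or more, AP-1 was in 7.09% (interval 4.69 to 10.6%) of the summits and 6.19% of the windows beside, and CAGCTG in 7.77% and 6.43%. In these strong peaks RUNX was lower at summits (2.03% and 3.57%), SOX was higher (4.05% and 3.57%) and NFI had the widest gap (10.8% and 6.905%), and the intervals of all 5 motifs overlapped. A match is a run of letters and not a bound site.

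**Figure D5:**
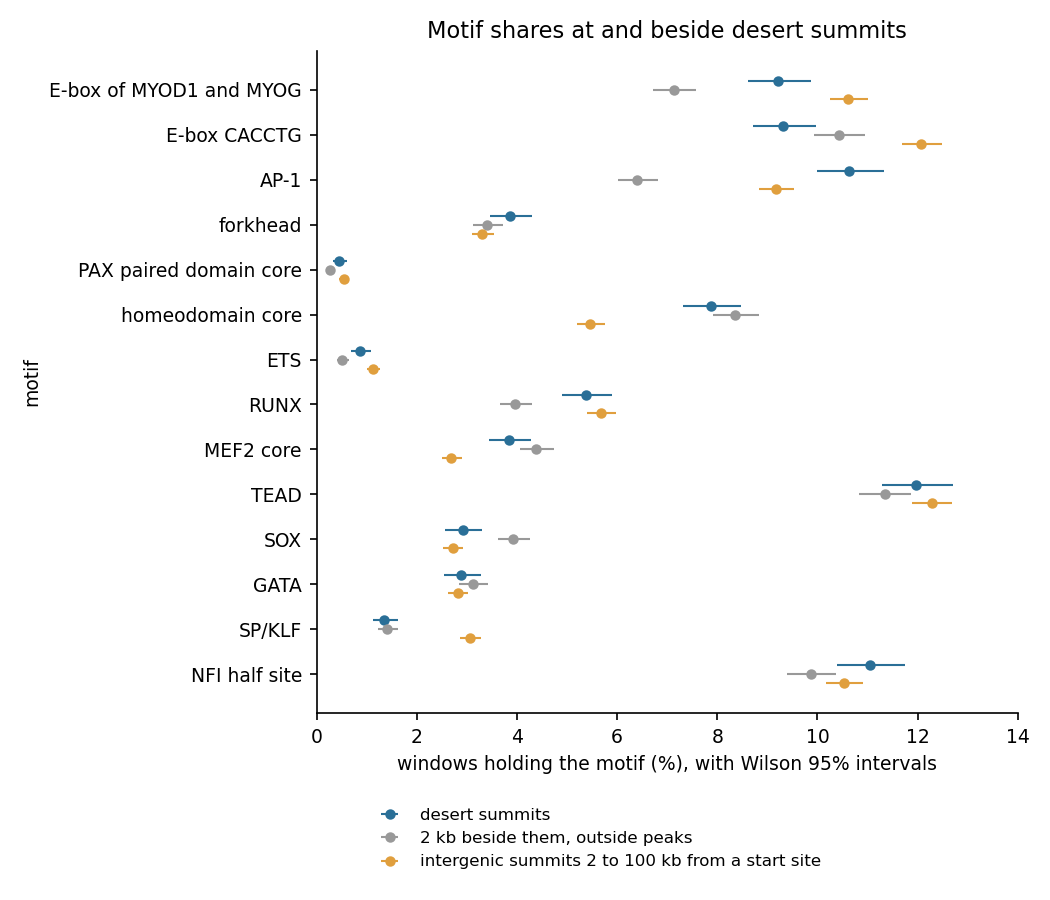
Share of windows of 100 bases either side that hold each motif named here (horizontal axis, in percent, bars are Wilson 95% intervals) at gene desert summits (blue), 2 kb beside them and outside peaks (grey) and at intergenic summits 2 to 100 kb from a start site (orange). AP-1 has the widest gap between blue and grey, 10.6% against 6.404%, and the SOX motif is lower at summits than beside them.

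Genes that border a desert were compared with fixed lists, as counts. The counts are per gene and do not allow for the length or number of deserts that a gene borders. Of 21000 protein-coding genes, 3077 (14.7%) bordered a desert and 1395 (45.3% of those) bordered at least 1 desert peak. Of 81 developmental regulators listed because they are known to flank deserts, 74 bordered a desert and 52 (70.3% of the 74) had a desert peak, and 11 (14.9%) had a desert with 20 or more, against 230 (7.47%) of the 3077. Of 68 genes of neuronal adhesion and axon guidance, 62 bordered a desert and 41 (66.1%) had a desert peak, and 10 (16.1%) had a desert with 20 or more. None of 10 housekeeping genes bordered a desert. Of the genes the study lists as expressed in rhabdomyosarcoma, 14 of 19 desert-bordering genes of the St. Jude list, 5 of 7 of the NIH list and 15 of 23 of the DepMap list had a desert peak. Of its list of endothelial transcription factors, 7 of 16 (43.8%) did, and 4 (25.0%), namely Nr2f2, Klf4, Klf6 and Jun, had a desert with 20 or more. That was so of 3 (15.8%) of the St. Jude genes, 1 (14.3%) of the NIH genes and 1 (4.35%) of the DepMap genes that border a desert.

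The 11 developmental regulators with 20 or more peaks in a desert included Meis1 with its 52. The proto-oncogene Myc had deserts on either side, with 40 peaks beyond Pvt1 (chr15:62260216-63414396) at 335 to 1386 kb from Myc and up to 12.1-fold, and 25 on the other side at 347 to 876 kb. Nr2f2, a nuclear receptor of veins and mesenchyme, bordered 38 peaks at up to 8.24-fold. Klf4 had 32 and Klf6 had 20 on each side. Sox5 had 30, Nfia 28, Tcf4 26, and Id4 and Irx1 25 each. The top folds were 15.6 at 698 kb from Id4 and 15.3 at 591 kb from Irx1. Sox9, the master factor of cartilage, had 20 peaks in the known regulatory desert before it (chr11:111512458-112663926), at 173 to 963 kb and up to 12.1-fold. The median fold of these deserts lay between 4.35 and 5.65.

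Among the 10 genes of neuronal adhesion and guidance beside 20 or more peaks were cadherin genes. Between Cdh6 and Cdh9, 38 peaks in 3355 kb of qualifying sequence had a median distance of 211 kb from Cdh6 and 3344 kb from Cdh9. Lrrc4c, a ligand of netrin-G, had 43 peaks with a top fold of 16.3, and Pcdh17 had 38 on the side of Diaph3 and 23 on the side of Olfm4. The ephrin receptor gene Epha7 bordered 3 deserts, directly or as the nearest coding gene, with 30, 26 and 24 peaks. Lrrn1 had 30, Tenm3 26 and Flrt2 25, and the desert between the guidance ligand genes Sema3d and Sema3a held 27. Of the study's other lists, Irs1 had 60, Hivep2 43, the AP-1 gene Jun 36 at 251 to 405 kb, and the hedgehog effector Gli2 26 at 114 to 256 kb.

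Many of the peaks beside list genes were desert peaks by curated RefSeq alone. The 28 deserts with 20 or more peaks beside a list gene held 876, of which 360 met the rule with predicted models and 181 with GENCODE. Those beside Nr2f2, Tcf4, Tenm3, Hivep2 and Gli2 kept none with either annotation. With predicted models none were left beside Sox5, Id4 and on 1 side of Klf6 (10 on the other), and 1 beside Lrrn1. With GENCODE none were left beside Jun, beside Lrrn1, between Sema3d and Sema3a, in the second desert of Myc and in 1 desert of Klf6 (1 in the other). Meis1 and the first desert of Myc each kept 17 peaks with predicted models and 3 with GENCODE. Flrt2 kept 23 and 21, and Irx1 14 and 22.

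Myogenic and endothelial genes served as a check of the tumor's label. Of 25 myogenic regulators, 11 (44.0%) had a peak within 2 kb of a start site, against 45.4% of all protein-coding genes and 1 of 14 endothelial genes (7.14%), which was Cd34. Myod1 and Myog, which define the myogenic program, had none within 2 kb. Within 100 kb they had 12 and 9, at up to 11.1 and 11.8-fold, where the median was 12 for all protein-coding genes and also for the myogenic and the endothelial list. Myf5 had 48 within 100 kb. Pax3, whose locus carries the fusion allele, had 46 within 100 kb at up to 18.1-fold. Pax7, Dach1, Lbx1, Msc and Eya4 had none within 100 kb, and neither did the endothelial genes Kdr and Sox17. The other 12 of the 14 endothelial genes (85.7%) had a peak within 100 kb, among them Cd34 with 44, Pecam1 with 24 and Cdh5 with 18 at up to 17.2-fold, against 80.0% of the myogenic regulators and 82.4% of all protein-coding genes, so this wider range did not set the lists apart. Of these regulators 10 bordered a desert and 7 had a desert peak, with 17 and 5 peaks in the deserts of Eya1, 10 and 4 in those of Eya4, 6 by Mef2a and 2 by Pax3. For Eya4, a transcriptional coactivator, the only peaks counted were thus those in its deserts. Among endothelial genes only Emcn bordered desert peaks, with 6.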

How the data were processed

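The labels describe CUT&RUN libraries of sorted live cells from mouse tumors. By the study's methods, the authors aligned read pairs to mm10 with bowtie (the labels' tool list names BWA, SAMtools and MACS2), removed those in problematic regions and near Col19a1, where a gain was seen, and ran the peak caller on every library with IgG as control. The methods name an earlier release of MACS, and the list bears the name MACS2. The deposited list gives a score, the whole part of 10 times the -log10 q, and a fold enrichment of summit fragments over IgG. The deposited -log10 p and -log10 q are the caller's own and were used only to describe or filter peaks. The peak names carry the number in the label of MCP H3K27ac replicate 5. Of 122959 peak numbers 584 were absent, 5 of the 285 breaks touched a gene desert peak, and no number was absent between the peaks of any of the 15 named deserts.

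Summits were placed against 45756 curated RefSeq transcripts with 31603 start sites (GRCm38), and Mb are of known bases. A promoter peak is any within 2 kb of a start site, inside transcripts too. A desert is the stretch between neighbouring transcripts. Fragment numbers are inferred: with a scale of 0.885 between the libraries, fold and p gave a whole number (tolerance 0.01 in -log10 p) at all peaks but 1, and at 4.79% with the scale 3% off. The solution was the only one within the tolerance at 91.2% of the peaks. Library depth is not stated. Shares have Wilson 95% intervals. Scripts ran in Python 3.11.15 with scipy 1.17.1 and pysam 0.24.0, and were tested on simulated data.

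The members, gene lists and motifs were chosen with earlier results of these data known. Named by rule were the 15 deserts with most peaks and the 5 densest with 10 or more, the 10 strongest, 5 widest and 3 farthest peaks, the 5 highest clusters and list genes whose desert holds 20 or more peaks. The empty deserts, the myogenic and endothelial deserts with fewer peaks, the widest cluster and the motif shares of strong peaks were added after values were seen. Symbols in the study's lists were matched to mouse genes by their letters. Values of 1 motif and of some list genes are not reported here, though they count in the totals.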

Additional observations from a re-analysis of the deposited data

How the results depend on the processing

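Numbers and shares of peaks moved with the annotation and the distance limit, and density, fold, width and fragments moved most with the limits on peak strength. Against 8124 gene desert peaks, there were 3478 with predicted RefSeq models, 1700 with GENCODE, 13939 at more than 50 kb, 3713 at more than 200 kb, 734 at more than 500 kb, 3694 with a -log10 q of at least 5 and 1824 among the strongest 25% of the list. Their share of the list, 6.64%, became 2.84% with predicted models, 1.39% with GENCODE (added after the fall in number was seen), 11.4% at 50 kb, 3.03% at 200 kb, 6.30% at the q limit, 5.87% among the strongest 25% and 7.004% without chromosomes 1, 6, 11 and 15. In the same order, GENCODE aside, the density of 10.7 per Mb became 7.88, 13.9, 7.35, 4.87, 2.40 and 9.85, and 11.8 without chromosome Y (added later). The median fold, 5.13, rose to 6.51 at the q limit, 7.80 among the strongest 25% and 5.22 without those 4 chromosomes. Of all chromosomes, those 4 had the most peaks of all kinds per Mb, at 61.9, 60.8, 81.7 and 56.8. The median width of 158 bases became 286.5 and 481, and the median of 12 fragments became 16 and 19, at the q limit and among the strongest 25%. The median GC of 41.8% became 40.3% with predicted models, 42.8% at 50 kb and 40.3% at 200 kb. The 858 deserts that held a peak became 520 with predicted models, 1570 at 50 kb, 401 at 200 kb and 508 among the strongest 25%. The share in the 10 deserts with most peaks, 8.44%, became 14.7% with predicted models, 5.80% at 50 kb, 14.1% at 200 kb, 9.12% at the q limit, 10.8% among the strongest 25% and 9.29% without the 4 chromosomes. Each alternative changes the sequence or the peaks kept, and why each value moved was not tested.

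Requiring the whole peak to lie outside transcripts left 8122. Gaps of 5, 25 and 1 kb gave 3031, 2057 and 3689 clusters against 2518. At desert summits 9 of the 15 motifs had a higher share than beside them, and 8 to 12 did under the alternatives. AP-1, CAGCTG, RUNX and NFI stayed higher at summits and SOX lower under these 5, though among peaks of 10-fold or more, looked at later, RUNX was lower and SOX higher at summits. No paired analysis was possible because only 1 library has a list, so replicates could not be left out either.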
